A study of Sus scrofa with 14 samples.

Results

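Epi-piPSC-FLB2i, an induced pluripotent stem cell line of the pig, was compared with pESCLC-primary, the first outgrowths of pig embryos. The comparison rests on 4 of the 14 samples of the series, 2 of each group, and on the 14537 of 19588 genes that reached 10 normalized counts in 2 or more of these 4 samples. A normalized count is the number of sequencing reads on a gene divided by a size factor that evens out the depth of the samples. Epi-piPSC-FLB2i was made from porcine fetal fibroblasts with episomal plasmids, circular DNA that is meant not to enter the genome, which carried human POU5F1, SOX2, KLF4, LIN28 and L-MYC and a short hairpin RNA. By the study's own account plasmid DNA was still present in such lines after long culture. Both samples are of 1 line, taken at passages 9 and 12 and grown on irradiated mouse feeder cells in FLB2i medium. FLB2i holds the growth factors LIF, FGF2 and BMP4, the GSK3 inhibitor CHIR99021, which activates WNT signalling, and A83-01, which blocks the receptors for TGFB, activin and nodal. The pESCLC-primary samples are 2 primary outgrowths of blastocysts, attached and grown in F, a medium with FGF2, and not passaged. By the study's methods blastocysts were also placed on irradiated mouse feeder cells, in a medium that held fetal bovine serum. Such outgrowths came from intact blastocysts or from isolated inner cell masses. The groups thus differ in origin, in reprogramming and in medium, and these cannot be told apart. For comparison, pESCLC-FLB2i is an embryo-derived line in the same medium as Epi-piPSC-FLB2i (1 line, passages 3 and 6), and Epi-piPSC-FL6i comprises 2 other lines of the same kind of reprogramming (passages 12 and 11) in FL6i, a medium with FGF2, LIF and inhibitors of p38, JNK, MEK, GSK3 and the TGFB and BMP receptors. As the duplicates are 2 passages of 1 line and 2 outgrowths, p-values measure only the spread between these samples.

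A blastocyst holds the epiblast, which gives rise to the embryo, and the trophectoderm and primitive endoderm, epithelia that give rise to placenta and yolk sac. Reprogrammed fibroblasts usually lose their mesenchymal genes and become epithelial, with E-cadherin (CDH1) at their cell contacts, while they switch on pluripotency genes such as NANOG. Pig pluripotent cells have mostly been grown either in a primed state held by FGF2 and activin or nodal, or in media meant for the earlier naive state, where LIF, BMP4 and kinase inhibitors take that place.

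Between 16493637 and 19456453 reads were counted on genes in the 4 samples, so that a normalized count of 1 stood for 0.915 to 1.08 reads. Over the genes tested, log2 values of the duplicates had a Pearson r across genes of 0.985 in Epi-piPSC-FLB2i and 0.973 in pESCLC-primary, against 0.738 to 0.776 between samples of the 2 groups. Genes were tested with limma on log2(normalized count + 1), with p-values adjusted by Benjamini-Hochberg over all 14537 genes. A gene with an adjusted p of at most 0.05 is said to have risen or fallen in the line, and one that also rose or fell by 3 or more on the log2 scale is called a DEG. There were 1507 DEGs (10.4% of the genes tested), of which 664 were higher (4.57%) and 843 lower (5.8%) in Epi-piPSC-FLB2i. At any fold change 7919 genes had changed (54.5%), 3833 upwards (26.4%) and 4086 downwards (28.1%). When the samples were left out 1 at a time, 1113 of the 1507 DEGs (73.9%) were called every time, and these were 439 of the 664 higher and 674 of the 843 lower DEGs. The 7919 changed genes became 4274 without the first and 4303 without the second sample of the line, and 5268 without the second outgrowth. In every one of the 7919 genes (100%) both line samples lay on the same side of both outgrowths, as they did in 79.6% of all genes tested. Where genes that rose or fell are said not to overlap between the groups, this therefore adds nothing to their call. With 1 sample of a group left out, the spread comes from the other group and from genes of like level, and the lone sample is assumed to vary likewise. The median log2 fold change of all genes tested was 5.18e-05, and its median standard error 0.214. In what follows a value after ± is the standard error of a log2 fold change, values are given for the first and second sample of a group in that order, and the changes of low genes are understated by the added 1. Where a group had no read, the fold is a lower bound computed with 3 reads in each of its samples.

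**Figure D1:**
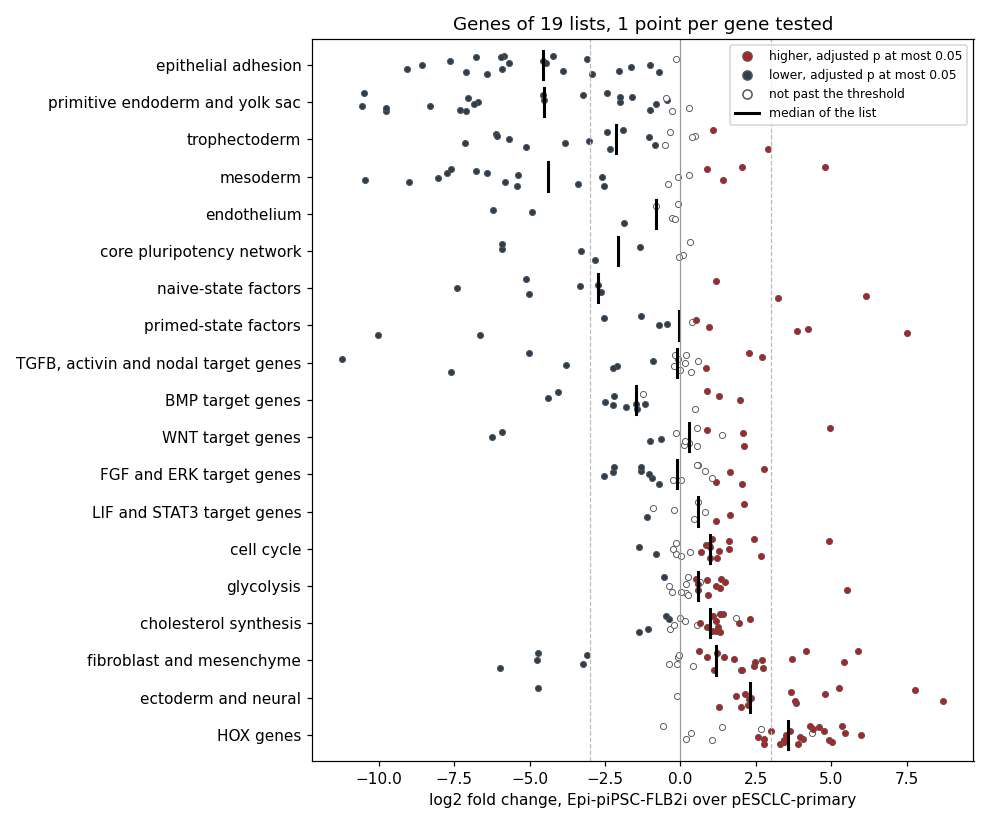
Log2 fold change of Epi-piPSC-FLB2i over pESCLC-primary (x axis) for the genes of 19 lists (rows), 1 point per gene tested, red where it rose, dark blue where it fell and open where it did not pass the adjusted p of 0.05. Black bars are list medians and dashed lines mark a log2 fold change of 3 in either direction; the medians run from -4.57 for epithelial adhesion to 3.58 for HOX genes.

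Of the markers of the pluripotent state only NANOG, LIN28A and DNMT3B could be read, and all 3 had reads in the line but had fallen. In the study's stainings such lines were positive for POU5F1 and SOX2 and negative for NANOG. NANOG, a core pluripotency factor, had 287 and 178 normalized counts in pESCLC-primary and 25.9 and 36.9 in Epi-piPSC-FLB2i (log2 fold change -2.83 ± 0.38, adjusted p = 0.000782), 7.42-fold lower on the means. LIN28A, an RNA-binding protein of early embryonic cells, had 5185 and 5313 against 2209.5 and 1940.2 (log2 fold change -1.34 ± 0.12, adjusted p = 0.000131). Both line samples lay below both outgrowths for both genes. LIN28 was also on the plasmids, and whether reads of the human gene were counted on LIN28A was not tested. The porcine genes POU5F1 and SOX2, which would answer the label most directly, were not analysed here, since no row could be paired with these names. In Epi-piPSC-FL6i NANOG stood at 0.965 and 0.999. The falls of LIN28A and DNMT3B did not pass when the spread was estimated over all 14 samples (adjusted p = 0.507 and 0.168).

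Of 18 core pluripotency genes 9 had no row and 1 was below the filter on low values. Of the 8 tested, 5 fell and none rose (median -2.09), where 28.1% of all genes fell and 26.4% rose. GDF3, a nodal-related ligand of pluripotent cells, had 72.8 and 48.1 in the outgrowths and no read in either line sample, at least 20.6-fold lower. EPCAM, an adhesion molecule of pluripotent and epithelial cells, fell from 6158 and 7098 to 111 and 106, 61.1-fold. It is also counted among the epithelial genes below. Of 9 genes of the naive state, 6 fell and 3 rose (median -2.75), and with either line sample left out 1 riser was left. SUSD2, a surface marker of naive human cells, fell from 1625 and 2603 to 6.21 and 19.4 (log2 fold change -7.41 ± 0.50, adjusted p = 4.88e-05), and TBX3, a transcription factor of the naive network, from 2174 and 1844 to 36.2 and 85.8 (log2 fold change -5.14 ± 0.38, adjusted p = 6.5e-05). Each of the 6 was lower in both line samples than in either outgrowth, as was every gene that fell. STAT3, through which LIF acts, rose from 933 and 925 to 2278 and 1919 (log2 fold change 1.17 ± 0.13, adjusted p = 0.000389). KLF4, 1 of the genes on the plasmids, had 30.5 and 6.56 in pESCLC-primary and 181 and 115 in the line, 8.0-fold higher (log2 fold change 3.24 ± 0.67, adjusted p = 0.00578). That call was lost with either line sample left out (adjusted p = 0.122 and 0.0844), as was that of GBX2, a homeobox gene, with 23.6 and 0 against 331 and 379.9 (adjusted p = 0.115 and 0.122 without the first and the second line sample). Whether reads of the human KLF4 were counted on the porcine gene was not tested.

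Genes of the primed state went both ways, with 5 of 12 higher, 6 lower and a median of -0.03. Over all genes tested 26.4% rose and 28.1% fell. The largest falls were of NODAL and OTX2. NODAL, the ligand that sustains the primed state, went from 3856 and 4372 to 1.03 and 6.46 (log2 fold change -10.04 ± 0.57, adjusted p = 2.45e-05), and OTX2, a homeobox gene of the primed epiblast, from 3565 and 4568 to 85.9 and 17.5 (log2 fold change -6.65 ± 0.62, adjusted p = 0.000173). Those that rose included CRABP1 and the secreted WNT antagonist SFRP2. CRABP1, a retinoic acid binding protein, had 50.2 and 110.4 in the outgrowths and 11941 and 16056 in the line (log2 fold change 7.52 ± 0.34, adjusted p = 1.21e-05). SFRP2 went from 111 and 50.3 to 1130.1 and 1069 (log2 fold change 3.86 ± 0.36, adjusted p = 0.000162). In all 4 genes the line and the outgrowths stood far apart.

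Cell adhesion genes of epithelia were lower in the line almost without exception. Of 21 such genes tested 20 fell, 15 of them as DEGs, and none rose, where 5.8% of all genes were DEGs that fell; the median log2 fold change was -4.57, and 1 gene did not pass. CDH1 had 9284 and 11344 normalized counts in the outgrowths and 1452 and 1231 in the line (log2 fold change -2.94 ± 0.15, adjusted p = 1.65e-05), a 7.69-fold fall. The tight junction protein occludin (OCLN) went from 4083 and 5232 to 16.6 and 7.38, 389-fold lower. GRHL2, a transcription factor that holds epithelial genes on, was nearly silent at 1.03 and 3.69 against 1643 and 1691 (log2 fold change -9.08 ± 0.45, adjusted p = 1.67e-05), and the epithelial splicing regulator ESRP2 followed it, at 9.31 and 16.6 against 2574 and 2881 (log2 fold change -7.66 ± 0.31, adjusted p = 9.46e-06). For all 20 genes both line samples were below both outgrowths, as for every gene that fell. The trophectoderm and primitive endoderm of the outgrowths are themselves epithelia, and their markers fell at the same time. Summed over 9 trophectoderm markers, KRT8 and KRT18 for the most part, the outgrowths had 343299 and 399993 normalized counts and the line 14247 and 8686, and 6 of the 9 fell and 2 rose. Over the 8 of 9 primitive endoderm markers with a row the sums were 90428 and 135925 against 1886 and 1916. Their part in the epithelial result was not tested.

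ZEB1 and the SNAI factors, which repress epithelial genes, bind the letters CACCTG, which on the opposite strand of the DNA read CAGGTG. ZEB1 showed the largest rise of the mesenchymal list, and whether it acts on the epithelial genes was not tested. The promoters of CDH1 and GRHL2 are shown with these letters in capitals, wherever they occur on either strand. The windows are the 250 bases before the gene start of RefSeq on the assembly Sscrofa11.1, read 5′ to 3′ on the strand of the gene, and the start that the cells used may lie elsewhere. CDH1 lies on chr6:18075487-18155986, on the minus strand, and its window is chr6:18155987-18156236. GRHL2 lies on chr4:35368788-35565394, also on the minus strand, with the window chr4:35565395-35565644.
CDH1: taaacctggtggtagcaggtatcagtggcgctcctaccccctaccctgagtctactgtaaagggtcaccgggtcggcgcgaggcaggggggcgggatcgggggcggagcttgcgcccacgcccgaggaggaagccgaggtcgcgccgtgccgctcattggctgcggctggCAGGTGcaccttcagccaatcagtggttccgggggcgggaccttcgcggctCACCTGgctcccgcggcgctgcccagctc
GRHL2: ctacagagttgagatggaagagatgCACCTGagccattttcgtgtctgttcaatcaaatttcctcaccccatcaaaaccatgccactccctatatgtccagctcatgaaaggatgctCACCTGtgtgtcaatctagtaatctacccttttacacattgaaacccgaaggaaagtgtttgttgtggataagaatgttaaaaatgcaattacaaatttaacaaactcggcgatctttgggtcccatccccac
Each of these windows holds the motif at 2 places, while the windows of OCLN and ESRP2, which also fell, hold none. Over the list, 8 of 21 windows held it (38.1%), against 2050 of the 11244 windows of all genes tested that could be placed (18.2%). A match is a run of letters and not a bound site.

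Genes of fibroblasts and mesenchyme moved the other way, though less uniformly: 16 of 26 rose, 5 fell and 5 did not pass, with a median of 1.17. Over all genes tested 26.4% rose and 28.1% fell. ZEB1 had 37.4 and 7.65 in the outgrowths and 1015 and 1155 in the line (log2 fold change 5.89 ± 0.63, adjusted p = 0.000294). LOX, which cross-links collagen, rose from 89.5 and 39.3 to 2789 and 2457 (log2 fold change 5.44 ± 0.36, adjusted p = 4.26e-05), CD44, a hyaluronan receptor, from 45.2 and 28.4 to 816 and 527 (log2 fold change 4.15 ± 0.34, adjusted p = 0.000103) and COL6A3, a chain of collagen VI, from 73.8 and 173 to 1628 and 1368 (log2 fold change 3.71 ± 0.37, adjusted p = 0.00022). VIM, the filament protein of mesenchymal cells, rose 5.45-fold, from 4892 and 4252 to 25011 and 24836. Among the genes that fell were matrix proteins typical of differentiated fibroblasts. DCN, decorin, went from 309.9 and 279.8 to 10.3 and 0.922 (log2 fold change -5.98 ± 0.78, adjusted p = 0.000711) and POSTN, periostin, from 422 and 183 to 15.5 and 5.53 (log2 fold change -4.75 ± 0.59, adjusted p = 0.000577). FN1, fibronectin, the gene with the highest counts of all in the outgrowths, went from 300932 and 380116 to 13856 and 11696, 26.7-fold lower. SNAI1, with 232 and 213 against 214 and 209, did not pass. Of the 7 of 9 fibroblast markers with a row 3 rose and 3 fell, and 4 of the 7 reached 10 counts in the second line sample; their sums were 18665 and 11745 normalized counts in the outgrowths and 22891 and 19424 in the line. Over the whole list the sums stood the other way round, at 340816 and 411969 in the outgrowths, most of it FN1, and 105535 and 88647 in the line. The 5 blood and immune markers, of which 1 rose, summed to 102 and 94 against 210 and 131. The count of 16 risers fell to 9 without the first line sample, to 11 without the second, and to 4 when the spread was estimated over all 14 samples, where CD44, COL6A3, DCN and POSTN did not pass either (adjusted p = 0.101, 0.287, 0.0574 and 0.325).

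**Figure D2:**
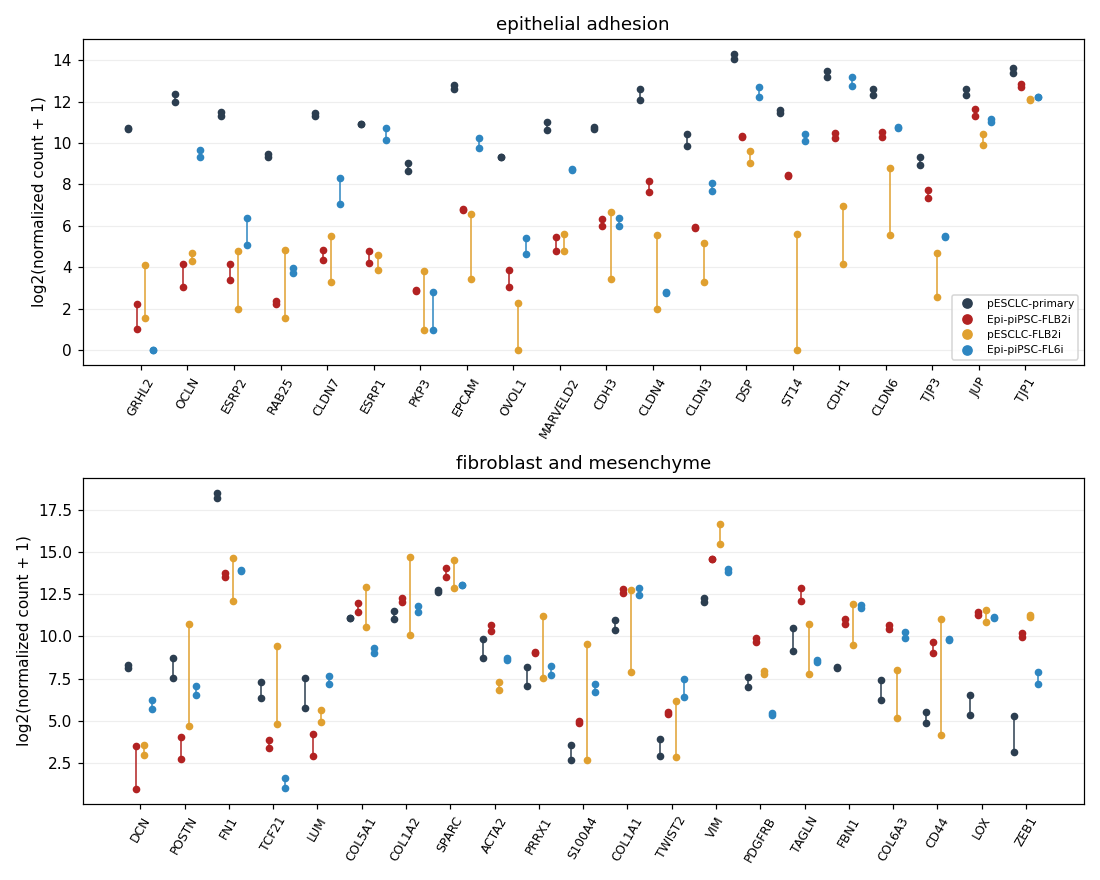
Log2(normalized count + 1) of the genes that rose or fell among those of epithelial adhesion (top) and of fibroblasts and mesenchyme (bottom), ordered by log2 fold change, with both samples of pESCLC-primary (dark blue), Epi-piPSC-FLB2i (red), pESCLC-FLB2i (ochre) and Epi-piPSC-FL6i (bright blue) joined by a line. In the top panel red lies below dark blue for all 20 genes, and CDH1 in bright blue lies close to the outgrowths.

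The outgrowths carried strong signals of both extraembryonic lineages, and most of these genes were lower in the line, which does not descend from the outgrowths. Of 23 genes of primitive endoderm and yolk sac, 20 fell, 13 as DEGs, and none rose (median -4.53), where 28.1% of all genes fell. GATA4, GATA6, FOXA2 and HNF4A are transcription factors that define this lineage. GATA4 had 6692 and 8623 in pESCLC-primary and 3.1 and 17.5 in Epi-piPSC-FLB2i (log2 fold change -9.77 ± 0.62, adjusted p = 3.83e-05), and HNF4A 7811 and 8335 against 4.14 and 15.7 (log2 fold change -9.77 ± 0.49, adjusted p = 1.73e-05). GATA6 fell from 2740.5 and 2561 to 10.3 and 34.1 (log2 fold change -7.05 ± 0.48, adjusted p = 5.07e-05), and FOXA2 from 3029.7 and 3287 to 0 and 3.69 (log2 fold change -10.51 ± 0.67, adjusted p = 3.87e-05). These 4 factors were close to silent in both line samples. The apolipoprotein APOA1, which yolk sac endoderm secretes, had 902 and 778 counts in the line against 68583 and 111894, 107-fold lower. AFP, another secreted protein of yolk sac endoderm, was at 0 in all 4 samples, and 3 genes of the list did not pass. In these bulk samples fewer cells of a type and less RNA per cell cannot be told apart.

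Of 18 trophectoderm genes 12 fell, 2 rose and 4 did not pass (median -2.12), where 28.1% of all genes fell and 26.4% rose. The keratins KRT8 and KRT18, the filament pair of simple epithelia, made up most of the signal: KRT8 went from 230905 and 265084 to 9447 and 5402 and KRT18 from 106335 and 129060.2 to 2427 and 1171, falls of 33.4- and 65.4-fold. GATA3, a factor that specifies trophectoderm, fell from 1858 and 1683 to 108 and 139 (log2 fold change -3.84 ± 0.19, adjusted p = 1.57e-05). The outgrowths were higher in all 3 without overlap. CDX2, which is a trophectoderm factor and also a factor of the posterior embryo, stood apart from these. It had 785 and 757 counts in the line, but 388 and 26.2 in the 2 outgrowths, and the rise (log2 fold change 2.91 ± 1.04, adjusted p = 0.048) was lost with either line sample left out (adjusted p = 0.288 and 0.284), with DESeq2 and with edgeR. TFAP2A rose from 161 and 146 to 361 and 299.7 (log2 fold change 1.09 ± 0.23, adjusted p = 0.00554), a call that was lost with either line sample left out (adjusted p = 0.089 and 0.0539) and without the second outgrowth (adjusted p = 0.0512).

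Mesoderm genes mostly fell as well, 13 of 20 against 4 that rose (median -4.39, or -4.12 with genes at 0 reads set to their bound). Over all genes tested 28.1% fell and 26.4% rose. EOMES, a T-box factor of the primitive streak and of trophoblast, had 5381 and 6221 in the outgrowths and 1.03 and 7.38 in the line (log2 fold change -10.45 ± 0.60, adjusted p = 2.6e-05). GSC, the organizer gene goosecoid, went from 911 and 562 to 0 and 0.922 (log2 fold change -9.01 ± 0.50, adjusted p = 2.31e-05). The cardiac factors NKX2-5 and TBX20 had no read in either line sample. NKX2-5 had 296 and 231 in the outgrowths and TBX20 196 and 235, so that they were at least 89.7- and 73.4-fold lower. TBXT, brachyury, was unequal in the outgrowths, at 174 and 28.4, and near 0 in the line, at 0 and 1.84 (log2 fold change -5.41 ± 0.92, adjusted p = 0.00237), a call lost without the first line sample (adjusted p = 0.0734). The largest rise was of DES, desmin, the filament protein of muscle. It rose from 186 and 228 to 5985 and 5645 (log2 fold change 4.81 ± 0.15, adjusted p = 4.97e-06), 28.1-fold, and was also above both pESCLC-FLB2i samples (44.6 and 11.8) and both Epi-piPSC-FL6i samples (20.3 and 8.99). Of the 4 risers, which also held ACTC1, MESP1 and TBX6, 2 were left when the first or the second line sample, or the first outgrowth, was left out. Of 7 endothelial genes 3 fell and none rose; CDH5, the cadherin of endothelium, had 227 and 66.7 in the outgrowths and 0 and 1.84 in the line.

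Genes of the neural lineage mostly rose, where 26.4% of all genes rose and 28.1% fell. Of 16 ectodermal and neural genes tested 14 rose, 7 of them as DEGs, and only OTX1, with 21.6 and 29.5 in the outgrowths and no read in the line, fell; 1 gene did not pass, and the median was 2.30 (2.26 with genes at their bound). ZIC1, a zinc finger factor of the neural plate, had 12.8 and 1.09 in pESCLC-primary and 2140.2 and 2404 in the line (log2 fold change 8.72 ± 0.77, adjusted p = 0.000138). NEUROG2, a proneural factor, had no read in the outgrowths and 191 and 248 counts in the line (log2 fold change 7.77 ± 0.46, adjusted p = 3.09e-05), at least 70.5-fold higher. FABP7, a fatty acid binding protein of radial glia, rose from 56.1 and 32.8 to 1414 and 1961 (log2 fold change 5.25 ± 0.31, adjusted p = 2.83e-05), and NES, nestin, the filament protein of neural progenitors, from 3389 and 3084 to 12724 and 13142 (log2 fold change 2.00 ± 0.12, adjusted p = 2.66e-05). Both line samples were well above both outgrowths for these 4. PAX6, a factor of forebrain and eye, was below the filter on low values. It had 4.92 and 0 in the outgrowths and 1.03 and 9.22 in the line, against 639 and 205 in pESCLC-FLB2i, the embryo-derived line in the same medium.

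The 10 named genes that rose most, among DEGs with a symbol, were WNT8A, P2RX3, LRP11, MARCHF1, ELAVL3, BCAS1, ZIC1, IGFBPL1, LRRTM4 and NEUROG2. WNT8A, a WNT ligand of the primitive streak and of posterior neural induction, lies on chr2:140103322-140113682 (plus strand). It went from 7.87 and 8.74 to 6371 and 5797 normalized counts (log2 fold change 9.35 ± 0.21, adjusted p = 2.12e-06), 732-fold. Of the 10 it was the one for which both line samples lay above all 12 other samples of the series, of which the highest had 52.3 counts, in the first pESCLC-FLB2i sample. For each of the other 9 a sample of pESCLC-FLB2i, Epi-piPSC-FL6i or pESCLC-FL6i, an embryo-derived line in FL6i, was higher than at least 1 line sample. ELAVL3, an RNA-binding protein of neurons, had 4.92 and 0 in the outgrowths and 1179.8 and 931 in the line (log2 fold change 8.75 ± 0.77, adjusted p = 0.000133), and IGFBPL1, a secreted protein of the developing nervous system, 16.7 and 37.2 against 6710.3 and 6748 (log2 fold change 8.02 ± 0.34, adjusted p = 9.76e-06). BCAS1, a gene of young oligodendrocytes, had no read in pESCLC-primary and 385 and 465 in the line, at least 136-fold higher, against 0 and 0.985 in pESCLC-FLB2i and 1611 and 1167 in Epi-piPSC-FL6i.

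The 10 that fell most were LEFTY2, SLC13A5, PROM2, CER1, ARHGEF16, FOXA1, FOXA2, SLC28A3, SYNPO2 and EOMES, and each had at most 7.38 counts in either line sample. SLC13A5 is a citrate transporter and SLC28A3 a nucleoside transporter. The former had 3684 and 4574 in the outgrowths and 1.03 and 1.84 in the line (log2 fold change -10.74 ± 0.33, adjusted p = 4.97e-06), and the latter 3613 and 9646 against 2.07 and 4.61 (log2 fold change -10.47 ± 0.50, adjusted p = 1.49e-05). PROM2, a membrane protein of epithelial protrusions, went from 1833 and 2695 to 1.03 and 0 (log2 fold change -10.61 ± 0.46, adjusted p = 1.03e-05). In both pESCLC-F samples, embryo-derived cells passaged in F, each of the 10 had at least 611 normalized counts.

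**Figure D3:**
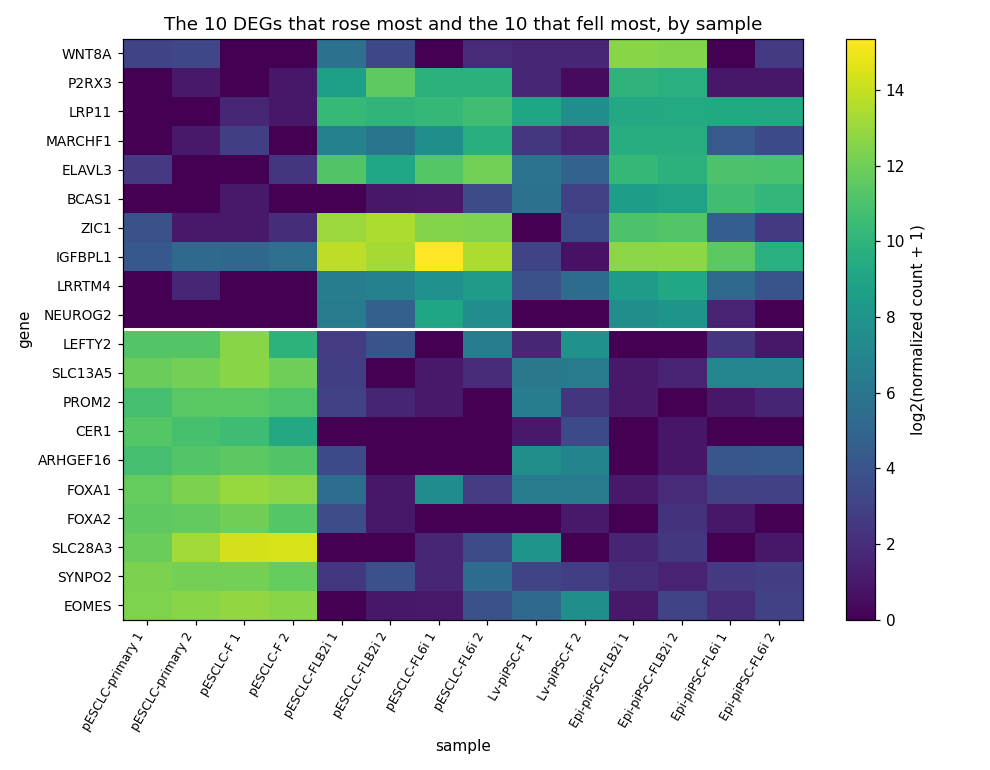
Log2(normalized count + 1), by colour from 0 (dark) to above 14 (ochre), of the 10 DEGs that rose most (above the white line) and the 10 that fell most in Epi-piPSC-FLB2i over pESCLC-primary, in the 14 samples of the series, where Lv-piPSC-F are lentivirally reprogrammed cells in F. WNT8A is bright in the 2 Epi-piPSC-FLB2i columns only, and the 10 genes below the line are bright only in pESCLC-primary and pESCLC-F.

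HOX genes encode the homeobox factors that give cells their position along the body axis, with low paralogue numbers used towards the hindbrain and high numbers towards the tail; early embryos and pluripotent cells usually hold them silent. Of 34 HOX genes with a row 28 were tested, 21 rose, none fell and 7 did not pass, with a median log2 fold change of 3.58, where 26.4% of all genes rose. The rise of 18 made them DEGs. By cluster, 5 of 7 HOXA genes rose (chr18:45388523-45480306), 8 of 8 HOXB genes (chr12:24784953-24950661), 5 of 6 HOXC genes (chr5:19151096-19268267) and 3 of 7 HOXD genes (chr15:81900962-81990026). All 16 genes of paralogue numbers 1 to 6 rose (median 3.93), against 5 of the 12 tested of numbers 7 to 13 (median 2.73). The genes above number 11 with a row, HOXB13, HOXC12, HOXC13 and HOXD12, were below the filter, and no HOXA gene above 11 had a row.

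HOXB1, used in the hindbrain, showed the largest rise of the HOX genes tested, from 16.7 and 10.9 to 886 and 979, 67.5-fold (adjusted p = 1.9e-05), and was at 13.8 and 0 in pESCLC-FLB2i and 0 in both Epi-piPSC-FL6i samples. HOXC4 went from 240.0 and 25.1 to 3943 and 3079 (log2 fold change 5.46 ± 0.87, adjusted p = 0.00173), and HOXA5 from 378 and 21.9 to 4033 and 3691 (log2 fold change 5.37 ± 1.09, adjusted p = 0.00506). The 2 line samples were alike for HOXC4 and HOXA5, whereas the 2 outgrowths were far apart. For HOXA10, HOXD8, HOXD9, HOXD10 and HOXD11 the groups overlapped, and HOXD9 had 127 and 13.1 against 29 and 25.8. RefSeq spans of some neighbours overlap, such as HOXA3 with HOXA5 and HOXD9 to HOXD11, and their counts are less certain.

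The first outgrowth had more HOX transcript than the second for 28 of the 28 genes tested, while it was the higher of the pair for 47.5% of all genes. At the median gene it reached 19% of the mean of the line and the second 2.92%. Summed over the 34 genes, the outgrowths had 3752 and 510 normalized counts, and the line 23418 and 21656. The sums were 13944 and 14332 in pESCLC-FLB2i and 1250 and 1221 in Epi-piPSC-FL6i. In pESCLC-FL6i, the embryo-derived line in FL6i, they were 33330 and 21380. The first outgrowth was also the higher in CDX2, TBXT, WNT5A and GREM1, as the values given for these show, and of the 664 DEGs that were higher in the line it was the higher of the pair for 392, the lower for 205 and level for 67. The size of the rise depended on it: the median was 4.97 without the first outgrowth, with 24 genes called, and 2.38 without the second, with 21 called higher and 1 lower. With either line sample left out the median stayed at 3.52 or 3.66, but only 2 of the 28 passed, in fits whose spread comes from the outgrowths. HOXB1 passed in each of these fits, while HOXC4 (adjusted p = 0.0792 and 0.07) and HOXA5 (adjusted p = 0.118 and 0.114) did not without the first or the second line sample.

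**Figure D4:**
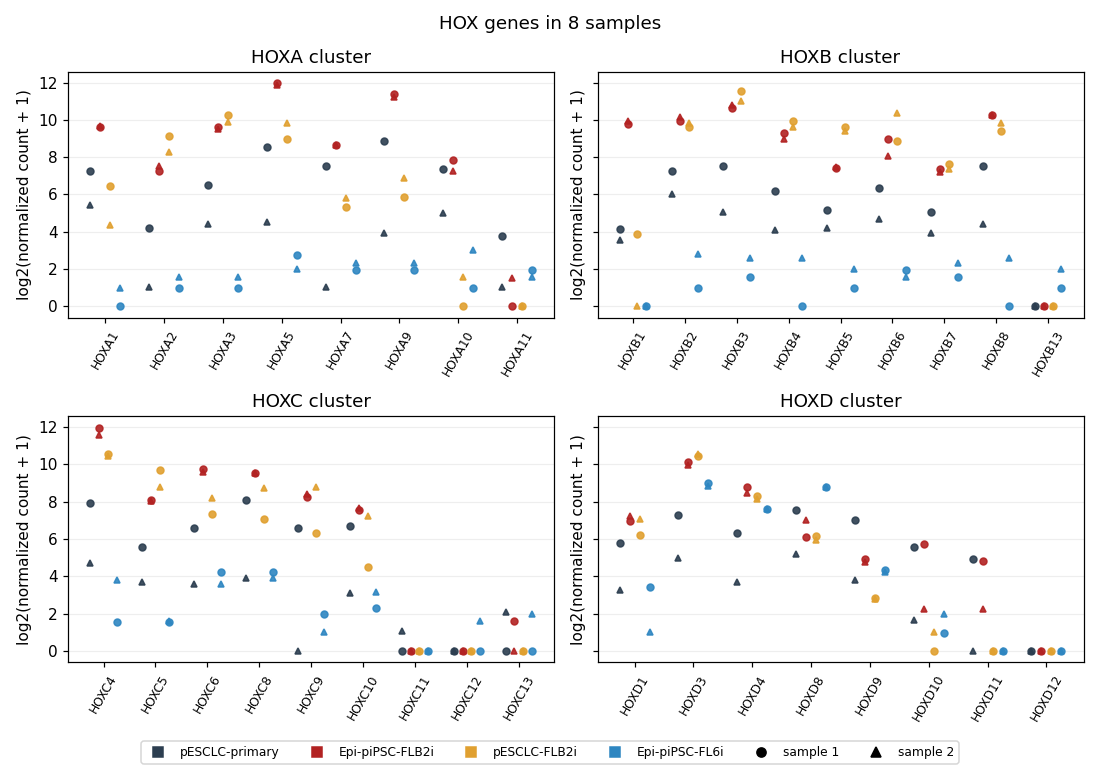
Log2(normalized count + 1) of the 34 HOX genes with a row, by cluster and in order of paralogue number, for sample 1 (circles) and sample 2 (triangles) of pESCLC-primary (dark blue), Epi-piPSC-FLB2i (red), pESCLC-FLB2i (ochre) and Epi-piPSC-FL6i (bright blue). Red symbols of the 2 line samples coincide for most genes, the dark blue circle lies above the dark blue triangle for all 28 genes tested, and bright blue is highest in HOXD3, HOXD4 and HOXD8.

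TGFB, activin and nodal signal through SMAD2 and SMAD3 and are blocked by A83-01 in the medium of the line. The secreted nodal antagonists LEFTY2 and CER1 were near silent there. LEFTY2, also a direct target of nodal, had 2404 and 2382 in the outgrowths and no read in either line sample (log2 fold change -11.23 ± 0.35, adjusted p = 5.63e-06), at least 815-fold lower, the largest log2 fall of any DEG with a symbol. CER1 went from 2481 and 1855 to 0 and 0.922 (log2 fold change -10.60 ± 0.44, adjusted p = 9.76e-06), and PMEPA1, a feedback inhibitor, from 446 and 520.3 to 27.9 and 6.46 (log2 fold change -5.04 ± 0.60, adjusted p = 0.000495). Both line samples were far below both outgrowths in each. Over the whole target list 7 of 18 fell, 3 rose and 8 did not pass, with a median of -0.12, where 28.1% of all genes fell and 26.4% rose. TAGLN, an actin-binding protein of smooth muscle, rose from 1428 and 567 to 7662 and 4432 (log2 fold change 2.69 ± 0.42, adjusted p = 0.00166). The others that rose were CCN2, a matrix-associated protein, and BHLHE40, a transcription factor, and without the first line sample none of the 3 passed (adjusted p = 0.0733, 0.0783 and 0.247 for TAGLN, CCN2 and BHLHE40). Among 21 components of the pathway 11 fell and 4 rose, of which 6 and 1 were left with either line sample left out, and 2 risers without the second outgrowth. Those that rose included SMAD4, the common partner, from 1762 and 1705 to 2800.5 and 2836 (log2 fold change 0.70 ± 0.11, adjusted p = 0.00159).

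BMP ligands signal through SMAD1 and SMAD5 and switch on the ID genes. BMP4 is added to FLB2i, and in the line 9 of 14 BMP target genes fell and 3 rose (median -1.46), where 28.1% of all genes fell and 26.4% rose. ID1, an inhibitor of differentiation factors, had 3511 and 3775 in the outgrowths and 1257 and 1435 in the line (log2 fold change -1.44 ± 0.12, adjusted p = 0.000117), which did not pass when the spread was estimated over all 14 samples (adjusted p = 0.135). ID2, of the same family, had 2883 and 2326 against 553 and 583 (log2 fold change -2.19 ± 0.15, adjusted p = 4.65e-05). SMAD6, a feedback inhibitor, fell 21.5-fold, from 1677 and 1241 to 59 and 76.5, and BAMBI, a decoy receptor, 16.7-fold, from 2058 and 1919 to 135 and 103. All 4 were lower in both line samples. Of the 3 risers 1 was left without the first line sample and none without the second. MSX1, a homeobox target, rose from 843 and 272 to 1793 and 1973, but not with either line sample left out (adjusted p = 0.131 and 0.149). Of 19 components of the pathway 10 fell and 6 rose, and 3 risers passed with either line sample left out. The cells' own ligands were lower: BMP2 went from 4507 and 5504 to 58 and 34.1 (log2 fold change -6.77 ± 0.26, adjusted p = 8.78e-06), BMP7 from 2155 and 1948 to 27.9 and 38.7 (log2 fold change -5.92 ± 0.24, adjusted p = 9.3e-06) and BMP4 from 1544 and 1649 to 611 and 590.2 (log2 fold change -1.41 ± 0.13, adjusted p = 0.000147). Secreted BMP antagonists went both ways. GREM1, gremlin, had 288 and 50.3 in the outgrowths and 6219.8 and 5289.5 in the line (log2 fold change 5.56 ± 0.68, adjusted p = 0.000532), and CHRD, chordin, 86.6 and 146 against 767 and 480.4 (log2 fold change 2.42 ± 0.33, adjusted p = 0.000915). NOG, noggin, fell 4.24-fold, from 332 and 318 to 71.4 and 82.1. Compared with Epi-piPSC-FL6i, where the BMP receptors are inhibited, 9 of 14 target genes were higher and 4 lower in Epi-piPSC-FLB2i, beside 30.6% and 30.4% of all genes, and ID1 stood there at 268 and 216.

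WNT signals stabilize CTNNB1 (beta-catenin), which with factors of the TCF and LEF family switches on feedback genes such as AXIN2; CHIR99021 acts at the same point. AXIN2 rose from 598 and 407 to 2269.6 and 1999 (log2 fold change 2.11 ± 0.20, adjusted p = 0.000176), 4.25-fold. FZD10, a WNT receptor, rose from 194 and 31.7 to 2331 and 2687 (log2 fold change 4.97 ± 0.70, adjusted p = 0.00104), and LEF1 from 291 and 110.4 to 745 and 776 (log2 fold change 2.08 ± 0.41, adjusted p = 0.00444). Neither passed without the first or the second line sample (adjusted p = 0.058 and 0.0626 for FZD10, 0.1 and 0.106 for LEF1), while AXIN2 did. LGR5, a receptor for R-spondins, fell from 1730.3 and 1438 to 25.9 and 24.9 (log2 fold change -5.90 ± 0.23, adjusted p = 8.78e-06) and DKK1, a WNT inhibitor, from 919 and 743 to 5.17 and 18.4 (log2 fold change -6.24 ± 0.53, adjusted p = 0.000117). Of 15 WNT targets 4 rose, 4 fell and 7 did not pass (median 0.28), near the shares of all genes tested (26.4% and 28.1%), and with either line sample left out 1 riser and 2 that fell were left, as were 3 and 2 without the second outgrowth. AXIN2 also stood at 3007 and 2502 in pESCLC-FLB2i and at 706 and 548 in Epi-piPSC-FL6i. The media of both have CHIR99021 too.

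TCF and LEF factors bind the letters CTTTGAT and, with A as the last letter, CTTTGAA, and both strands were searched. The AXIN2 window is shown because it is the WNT target whose rise passed with each sample left out, and its match is in capitals. AXIN2 lies on chr12:12311293-12343207, on the minus strand, and the window is chr12:12343208-12343457 of Sscrofa11.1 from RefSeq, the 250 bases before the gene start.
AXIN2: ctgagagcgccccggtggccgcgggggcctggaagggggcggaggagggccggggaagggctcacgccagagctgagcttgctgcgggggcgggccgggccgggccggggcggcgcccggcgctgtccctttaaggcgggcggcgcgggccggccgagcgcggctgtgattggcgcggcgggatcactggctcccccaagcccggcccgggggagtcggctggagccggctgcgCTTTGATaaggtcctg
Over the list 4 of 15 windows held a match on either strand (26.7%), against 506 of 11244 (4.5%) of all genes tested that could be placed. Of the 21 windows of epithelial genes 3 held one (14.3%). The matches of the list were in AXIN2 and LEF1, which rose, in DKK1, which fell, and in NKD1. The windows of FZD10, ZNRF3 and WNT8A, which rose, held none, and neither did those of LGR5, TCF7 and APCDD1, which fell.

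The ligands and receptors of the WNT pathway went both ways. Of 25 components 14 fell and 6 rose (median -0.53), beside 28.1% and 26.4% of all genes tested. Of the ligands WNT6 and WNT11 fell, the former from 526 and 553 to 0 and 1.84 (log2 fold change -8.32 ± 0.56, adjusted p = 4.9e-05) and the latter from 989 and 733 to 18.6 and 15.7 (log2 fold change -5.56 ± 0.30, adjusted p = 1.96e-05). WNT3A rose from 5.9 and 0 to 102 and 196 (log2 fold change 5.77 ± 0.89, adjusted p = 0.00153), a call lost without the second line sample (adjusted p = 0.0651). Of the receptors FZD5 fell from 7839.8 and 12517 to 48.6 and 37.8 (log2 fold change -7.82 ± 0.25, adjusted p = 5.63e-06) and FZD8 from 2215 and 2089.9 to 7.24 and 4.61 (log2 fold change -8.31 ± 0.31, adjusted p = 7.46e-06), while FZD1 rose from 214 and 189 to 774 and 718 (log2 fold change 1.88 ± 0.18, adjusted p = 0.000178). WNT5A, at 581 and 77.6 in the outgrowths and 1223 and 978 in the line, was again unequal between the outgrowths, and its call was lost with either line sample left out (adjusted p = 0.284 and 0.236). The 6 risers became 3 without the first line sample, 2 without the second and 4 without the second outgrowth, and the 14 that fell became 9 without the first line sample. Both line samples stood on one side of both outgrowths for all 20, as for every changed gene.

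LIF acts through its receptor with IL6ST and the kinase JAK2 on STAT3, which switches on SOCS3. Of 14 components 5 rose and 4 fell, beside 26.4% and 28.1% of all genes tested, and fewer of the 4 passed with some samples left out. IL6ST rose from 2719.8 and 2196 to 5882 and 6723 (log2 fold change 1.36 ± 0.14, adjusted p = 0.000281) and JAK2 from 287 and 259 to 575 and 598 (log2 fold change 1.10 ± 0.17, adjusted p = 0.00158), while the receptor LIFR itself did not pass, at 577 and 379 against 727 and 596. Receptors for related cytokines fell, OSMR from 633 and 657 to 53.8 and 36.9 and IL6R from 119 and 141 to 3.1 and 2.77. Of 9 STAT3 targets 3 rose and 1 fell (median 0.58), beside the same 26.4% and 28.1% of all genes. SOCS3, the feedback inhibitor, rose from 471 and 650.4 to 1221 and 1291 (log2 fold change 1.18 ± 0.18, adjusted p = 0.00143), and BCL6, a repressor, from 80.7 and 51.4 to 352 and 222, 4.35-fold (adjusted p = 0.00227). SOCS3 did not pass without the second line sample (adjusted p = 0.0537) and BCL6 not without the first (adjusted p = 0.0706). With either line sample left out 1 of the 3 risers passed. Both line samples were above both outgrowths for SOCS3 and BCL6.

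FGF2 was in both media, and the genes that FGF receptors switch on through ERK went both ways. Of 18 targets 8 fell and 4 rose (median -0.10), beside 28.1% and 26.4% of all genes tested. ETV4, an ETS factor, fell from 1681 and 1261 to 295 and 216 (log2 fold change -2.52 ± 0.22, adjusted p = 0.000117) and SPRY2, a feedback inhibitor, from 1671 and 1562 to 357 and 329 (log2 fold change -2.23 ± 0.14, adjusted p = 3.73e-05), whereas DUSP4, an ERK phosphatase, rose from 1079 and 1059 to 5075 and 3859 (log2 fold change 2.05 ± 0.15, adjusted p = 6.85e-05) and ETV1 from 54.1 and 44.8 to 314 and 366 (log2 fold change 2.76 ± 0.28, adjusted p = 0.000232). MYC, which growth factors induce, fell from 171 and 144 to 29 and 37.8 (log2 fold change -2.21 ± 0.34, adjusted p = 0.00143). Of 17 components of the pathway 5 rose and 4 fell, again near the shares of all genes tested (26.4% and 28.1%), and 2 of the 5 passed with either line sample or the second outgrowth left out, and 3 without the first outgrowth. FGF2 itself rose from 145 and 90.7 to 792 and 576 (log2 fold change 2.55 ± 0.29, adjusted p = 0.000384). Of the receptors FGFR4 fell 32.8-fold, from 876 and 1207 to 40.4 and 23.1, and FGFR3 3.47-fold, from 4159 and 4779 to 1149.8 and 1423. The 4 risers among the targets became 2 without the first line sample or the second outgrowth.

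**Figure D5:**
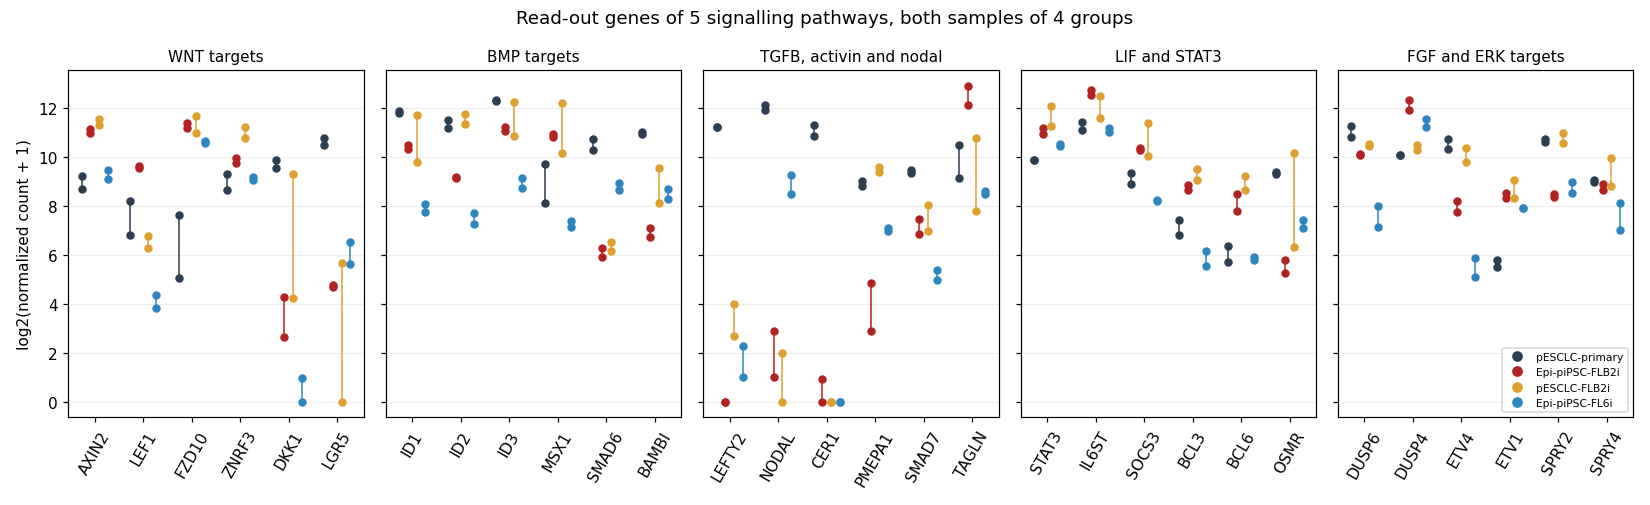
Log2(normalized count + 1) of 6 read-out or component genes for each of 5 pathways (panels), with both samples of pESCLC-primary (dark blue), Epi-piPSC-FLB2i (red), pESCLC-FLB2i (ochre) and Epi-piPSC-FL6i (bright blue) joined by a line. LEFTY2 in red is at 0, AXIN2 in red and ochre lies above dark blue, and ID1, ID2 and ID3 in bright blue are the lowest of the 4 groups.

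Against pESCLC-FLB2i, the embryo-derived line in the same medium, 530 of 14397 genes were DEGs (3.68%), 203 higher (1.41%) and 327 lower (2.27%) in Epi-piPSC-FLB2i, and 1571 had changed at any fold (10.9%). With limma no gene passed at any fold change when either line sample was left out, where the spread comes from the pESCLC-FLB2i samples, so that the limma calls given here against that line were all lost in these fits, and 1807 and 1994 genes had an unadjusted p under 0.05, and 925 were called without the first pESCLC-FLB2i sample. DESeq2 called 724 and edgeR 503 on all 4 samples. CDX2 stood at 0.769 and 0 there (log2 fold change 9.18 ± 0.48, adjusted p = 0.00936) and LIN28A at 32.3 and 0.985 (log2 fold change 7.99 ± 1.33, adjusted p = 0.0316). CDH1 was higher in Epi-piPSC-FLB2i, against 125 and 16.8 (log2 fold change 4.82 ± 0.93, adjusted p = 0.0416), and ZEB1 lower, against 2471 and 2266 (log2 fold change -1.13 ± 0.17, adjusted p = 0.0262). Of 26 HOX genes 8 were higher and 1 lower, beside 4.24% and 6.67% of all genes. Of 17 epithelial genes 4 were higher, none was lower and 13 did not pass. Among 26 genes of fibroblasts and mesenchyme 3 were higher, 1 was lower and 22 did not pass. Against Epi-piPSC-FL6i, of like reprogramming but in another medium, 1101 of 14252 genes were DEGs (7.73%), 641 higher (4.5%) and 460 lower (3.23%), and 8697 had changed at any fold (61%). Here 24 of 26 HOX genes were higher and 1 lower, and HOXB1 was at 0 and 0 (log2 fold change 9.86 ± 0.35, adjusted p = 1.51e-06). Of 19 epithelial genes 14 were lower and 4 higher, beside 30.4% and 30.6% of all genes. CDH1 stood at 6937 and 9419 (log2 fold change -2.60 ± 0.15, adjusted p = 9.3e-06). ESRRB, a naive-state factor, was at 2819 and 3413 (log2 fold change -8.84 ± 0.43, adjusted p = 4.01e-06) and KLF4 at 1182 and 1641 (log2 fold change -3.26 ± 0.24, adjusted p = 2.39e-05), both far above Epi-piPSC-FLB2i. These comparisons share the Epi-piPSC-FLB2i samples with that against pESCLC-primary.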

How the data were processed

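Polyadenylated RNA of 14 samples was sequenced from stranded libraries. Per the labels and the study's methods, the authors aligned reads to Sscrofa11.1 with TopHat2 2.1.0, counted them per Ensembl gene and divided them by DESeq2 size factors; the deposited signal values are these normalized counts, 1 column per sample. Whole reads were recovered in all 14 columns, with a largest deviation of 1.8e-09 reads. Gene symbols were found for 14151 of 19588 identifiers (72.2%), and 561 of the 653 symbols of the 35 gene lists had a row.

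Log2(normalized count + 1) was tested in R 4.3.3 with limma 3.58.1, with a trend in the prior variance, over genes that reached 10 normalized counts in 2 or more of the 4, and p-values were adjusted by Benjamini-Hochberg. The script was tested on simulated data. Alternatives were pseudocounts of 0.1 and 5, no filter or one of 50, a fold change of 3, scaling within the 4 samples by median of ratios or TMM, 1 fit over all 14 samples, a replicate block, DESeq2 1.42.0 and edgeR 4.0.16 on the recovered reads, and leaving out each sample. Genes are named that are core members of a list or among its 4 largest changes in each direction, the 10 DEGs that moved most each way, and the 5 highest in each group. The largest changes and the DEGs were taken only from genes whose groups did not overlap. VIM, NOG, APOA1, AFP, SNAI1 and the HOX genes named for overlap or for their level in Epi-piPSC-FL6i fall outside that rule and were chosen after their values were seen. The lists and the genes compared were chosen with earlier results of these data known. Promoter windows were read from RefSeq, and genes were placed by symbol. Some genes and lists are not reported here.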

Additional observations from a re-analysis of the deposited data

Results flagged for a closer look

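The difference of Epi-piPSC-FLB2i from pESCLC-primary was not the same as that of pESCLC-FLB2i, the embryo-derived line in the same medium. Since both are measured against the same outgrowths, the outgrowths cancel and the test is the direct comparison of the lines, in which limma called 530 DEGs. Of the 10 DEGs that rose most over pESCLC-primary, 3 passed this test at a log2 fold change of at least 3. WNT8A was higher in Epi-piPSC-FLB2i by 8.05 on the log2 scale (52.3 and 8.87 normalized counts in pESCLC-FLB2i), BCAS1 by 8.23 (0 and 0.985) and MARCHF1 by 3.23 (105 and 62.1). None of the 530 was called with either line sample left out, with 1807 and 1994 genes at an unadjusted p under 0.05. With 2 samples a group, no sample was tested as an outlier.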

How the results depend on the processing

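The 1507 DEGs against pESCLC-primary became 3301 at a fold change of 3, 1591 higher and 1710 lower. With other pseudocounts, filters, scalings and fits they ranged from 1092 (pseudocount of 5) to 1622 (no filter), and DESeq2 called 1518 and edgeR 1537. With 1 sample left out there were 1355 to 1595, 528 to 755 of them higher and 782 to 840 lower. The 7919 changed genes became 4673 when the spread was estimated over all 14 samples and 4274 to 6293 with 1 sample left out. The 530 DEGs against pESCLC-FLB2i became 0 to 925 with 1 sample left out, and the 1101 against Epi-piPSC-FL6i became 725 at a pseudocount of 5 and 1054 to 1178 with 1 sample left out. The cause was not tested. Against Epi-piPSC-FL6i DESeq2 and edgeR each called 1152. Replicate numbers in the labels did not pair the samples (correlation of the deviations -0.0515), and the replicate block gave 1510 DEGs against pESCLC-primary, 384 against pESCLC-FLB2i and 1101 against Epi-piPSC-FL6i.

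Of 237 named genes tested, 215 had a value in all 14 settings, of which 121 kept their call throughout; the filter of 50 left out the other 22. Of the 237, 108 lost or gained their call in at least 1 setting and 0 were reversed. The fit over all 14 samples ended 80 calls, among them those of MYC (adjusted p = 0.137), GATA3 (adjusted p = 0.0508) and FGFR3 (adjusted p = 0.0857), and leaving out 1 sample ended 31 to 64. With 2 samples a group and about 1 read to a normalized count, the spread of a gene rests in part on genes of like level, and the folds of genes near 0 rest on few reads.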

Other observations

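In the lists of the cell cycle, glycolysis, cholesterol synthesis and the mitochondrial genome more genes rose than fell. Over all genes tested 26.4% rose and 28.1% fell. Of 20 cell cycle genes 13 rose and 2 fell (median 0.96). CDKN2C, an inhibitor of CDK4 and CDK6, had 5.9 and 2.19 normalized counts in the outgrowths and 139.7 and 143 in the line (log2 fold change 4.92 ± 0.50, adjusted p = 0.000252), and RB1, the retinoblastoma protein, 144 and 139 against 967 and 857 (log2 fold change 2.68 ± 0.18, adjusted p = 4.83e-05). The 13 became 4 when the spread was estimated over all 14 samples. Of 19 glycolysis genes 10 rose and 1 fell (median 0.57). ENO2, the neuronal enolase, rose from 254 and 156 to 10454 and 8304 (log2 fold change 5.54 ± 0.24, adjusted p = 9.76e-06), and PGK1, phosphoglycerate kinase, from 14162 and 15348 to 35337 and 37393 (log2 fold change 1.30 ± 0.14, adjusted p = 0.00029). Of the 10 risers 5 to 6 were left with 1 sample left out, and 3 in the fit over all 14 samples. Of 22 genes of cholesterol synthesis 12 rose and 4 fell (median 0.97). HMGCS1, an early enzyme of the pathway, rose from 3134 and 3968 to 19962 and 15277 (log2 fold change 2.31 ± 0.18, adjusted p = 7.57e-05), while DHCR7, a late one, fell from 1013 and 1396 to 436 and 488 (log2 fold change -1.37 ± 0.19, adjusted p = 0.000883). The 12 risers became 7 without the first line sample, and the 4 that fell became 1 with either line sample or the second outgrowth left out. Of 13 mitochondrially encoded genes 5 rose and none fell with limma, 10 rose with DESeq2, and with limma 1 passed without the first outgrowth and none without the second line sample or the second outgrowth.

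Genes that handle vitamin A went both ways. Of 15 tested 4 rose and 7 fell (median -0.49), beside 26.4% and 28.1% of all genes tested. CYP26A1, which breaks down retinoic acid, had 8944 and 7012 in the outgrowths and 3.1 and 12.9 in the line (log2 fold change -10.03 ± 0.52, adjusted p = 1.81e-05), and RBP4, the plasma carrier of retinol, 1672 and 1722 against 66.2 and 79.3 (log2 fold change -4.53 ± 0.19, adjusted p = 9.76e-06). RDH10, which makes retinal, rose from 197 and 208 to 1635 and 1929 (log2 fold change 3.13 ± 0.16, adjusted p = 1.73e-05). The 4 risers became 2 with either line sample left out. Of 11 genes of DNA methylation 7 fell and 1, UHRF1, rose; DNMT3B, the embryonic de novo methyltransferase, had 1776 and 2427 against 812 and 868 (log2 fold change -1.30 ± 0.17, adjusted p = 0.000692), and 3 to 4 of the 7 were left with 1 sample left out. Of 18 imprinted genes 5 rose and 7 fell, beside the same shares of all genes. PEG10, a retrotransposon-derived gene, rose from 2715 and 2127 to 16884 and 17467 (log2 fold change 2.84 ± 0.14, adjusted p = 1.73e-05), and GRB10, a growth inhibitor, fell from 1765 and 2131 to 630.3 and 586 (log2 fold change -1.67 ± 0.14, adjusted p = 0.00012). The 5 risers became 3 without the second line sample, and the 7 that fell became 2 without it or the second outgrowth and 4 without the first outgrowth. Of 6 germ cell genes 2 rose and 4 fell; PIWIL2, which acts in piRNA silencing of transposons, had 0 and 0 against 169.7 and 108 (log2 fold change 7.09 ± 0.50, adjusted p = 5.76e-05), and PRDM1, a transcriptional repressor used in germ cell specification, 2434 and 2709.7 against 125 and 118 (log2 fold change -4.39 ± 0.15, adjusted p = 7.05e-06). The 4 that fell became 2 without the first line sample. Of 16 genes of the NOTCH pathway 5 rose and 5 fell, where 26.4% of all genes rose and 28.1% fell. DLL3, an inhibitory ligand, had 0.984 and 1.09 against 172 and 195 (log2 fold change 6.50 ± 0.44, adjusted p = 4.79e-05), and HEY2, a NOTCH target, 343 and 307 against 1.03 and 0.922 (log2 fold change -7.36 ± 0.41, adjusted p = 2.42e-05). The 5 risers became 3 with either line sample left out. Of 13 Hippo targets 3 rose and 3 fell, no more than those shares of all genes; AXL, a receptor kinase, went from 373 and 328 to 812 and 852 (log2 fold change 1.25 ± 0.16, adjusted p = 0.00062), and 1 riser was left without the first line sample or with either outgrowth left out.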
